A study of Rattus norvegicus with 30 samples.

Results

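The dorsal root ganglia (DRG) at 1 d after resection of the sciatic nerve were compared with the DRG at 0 d. The samples were the 3 arrays labelled 1 d and the 3 labelled 0 d for this tissue, 6 of 30 in the series, and all non-control probes were used. The animals of both groups were adult male Sprague-Dawley rats with no transgene or other genetic change named. The injury was the removal of a stretch of the sciatic nerve in the left thigh, and the tissue was the lumbar ganglia L4 to L6. The labels do not name a sham operation, do not say what was done to the animals of 0 d, and do not say how many rats an array holds. The p-values therefore measure the spread between these samples. The other arrays are DRG at 4, 7 and 14 d and the proximal sciatic nerve (SN) at all 5 days, with 3 arrays a group.

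The DRG hold the cell bodies of the sensory neurons whose axons run in the sciatic nerve, wrapped by satellite glia, beside Schwann cells, fibroblasts, vessels and resident macrophages. When such an axon is cut, signals travel back to the cell body, which switches on a set of transcription factors led by Atf3, Jun and Sox11. The cell then makes growth proteins and neuropeptides that it lacked or made little of before, and lowers some of its ion channels and receptors. In bulk tissue, a change in the number of cells of a type and a change in RNA per cell cannot be told apart.

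Values are normalized signals, the log2 of the background-subtracted intensity minus the array's 75th percentile, so that 0 is that percentile and a difference of 1 is a 2-fold change. A probe was tested when 1 or more DRG days had it well above background on each of their 3 arrays, and called higher or lower at an adjusted p under 0.05 in limma and a change over 2-fold. In the DRG at 1 d, 2600 of 34977 tested probes (7.43%) were called higher and 59 (0.169%) lower. Taking 1 probe per gene symbol, 1184 of 15916 symbols (7.44%) were higher and 34 (0.214%) lower. Of all calls, 97.8% were rises on this scale, against 86.5% after quantile normalization and 86.5% in the authors' processed values. The median change of all tested probes was 0.09 on this scale and -0.04 after quantile normalization.

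Dim probes carried most of the rises. Of the 8281 tested probes that missed this mark on 1 or more of the 6 arrays, 23.2% were called higher, and 17 were called lower. When only the 26696 probes well above background on all 6 arrays were tested, 680 (2.55%) were higher and 42 (0.157%) lower. The arrays moved with this: 26941 to 32602 probes were well above background on the arrays of 0 d and 33690 to 35527 on those of 1 d. Its part in the rises of dim probes was not tested. The 2 groups were also scanned on different days and on different slides, so that the day after injury and the scan cannot be told apart. Correlations between arrays were 0.986 to 0.991 within 0 d, 0.990 to 0.992 within 1 d and 0.970 to 0.984 between the days. For this reason the leading rises and falls were taken from probes well above background on all 6 arrays, with the 3 arrays of 1 d all beyond the 3 of 0 d. Genes of the lists are named whether or not they met this.

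**Figure D1:**
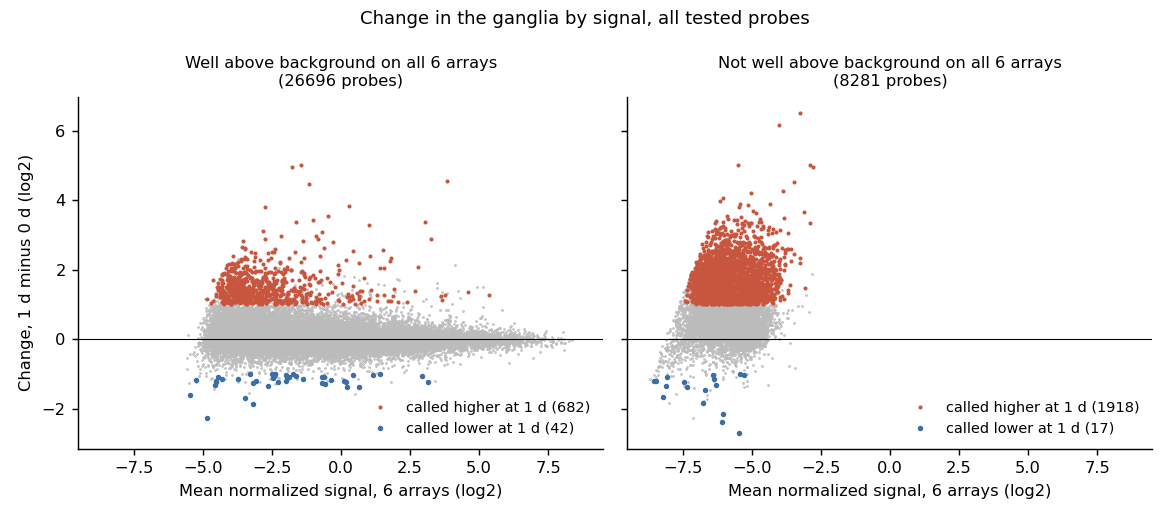
Change of each tested probe in the DRG (log2, 1 d minus 0 d) against its mean normalized signal over the 6 arrays, with probes called higher in red and called lower in blue. In the left panel, of probes well above background on all 6 arrays, 682 were called higher and 42 lower. In the right panel, of the 8281 others, 1918 were called higher and 17 lower.

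The labelled tissue was checked against markers of sensory neurons. All 15 tested markers were well above background on all 6 arrays, and their median change at 1 d was -0.05. Nefh, the heavy neurofilament, had a mean normalized signal of 6.28 at 0 d and 6.26 at 1 d in the DRG, against -5.01 in the SN at 0 d. Scn10a, a sodium channel of nociceptors, stood at 5.01 and 4.71 in the DRG against -5.58 in the SN.

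Several injury transcription factors rose. Of 37 tested genes, 11 were called higher and 0 lower, beside 7.44% and 0.214% of all symbols, and their median change was 0.56 beside 0.04 for 1 probe of every gene symbol. Atf3, a stress-induced factor that serves as the usual mark of an injured neuron, read 1.40, 1.63 and 1.67 on the arrays of 0 d and 5.95, 6.20 and 6.14 on those of 1 d. The arrays of 1 d stood far above all those of 0 d, a rise of 4.53 ± 0.12 (SE), or 23.1-fold (adjusted p = 1.85e-09). Its probe lies at chr13:107191691-107191749 of the rat build rn4. Sox11, a developmental factor tied to axon regrowth, rose by 3.08 (SE 0.23), although only 1 of its 3 arrays at 0 d was well above background. Jun, a subunit of the AP-1 complex, moved from 2.93, 2.94 and 3.13 to 4.21, 4.26 and 4.26, a rise of 1.24 (SE 0.12, adjusted p = 4.04e-05). Fosl1, another AP-1 subunit, rose by 1.97, Nfil3 by 1.78, Myc by 1.25, Crem by 1.2, Cebpd by 1.11 and Smad1, a carrier of BMP signals, by 1.06. Klf6 (0.81, adjusted p = 0.000167) and Stat3, which carries gp130 cytokine signals (0.69, adjusted p = 0.000843), rose by less than 2-fold. Sox4, a relative of Sox11, did not pass the test (-0.30, adjusted p = 0.0688).

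Csrp3 and Ankrd1, best known as muscle proteins and listed among injury factors, rose too, from scattered levels at 0 d. Csrp3 read -3.73, -0.88 and -2.13 at 0 d and 1.32, 1.22 and 1.30 at 1 d (3.53, SE 0.49). Ankrd1 read -4.35, -2.54 and -4.06 at 0 d and -0.77, -0.67 and -0.64 at 1 d (2.95, SE 0.35). The groups did not overlap for either gene, and the spread lay at 0 d. The summed signal of 13 skeletal muscle markers was 5.74, 8.44 and 6.87 on the log2 scale on the arrays of 0 d and 8.38, 8.36 and 8.25 at 1 d. All 13 markers had a higher mean at 1 d (median 1.48), but 0 of 13 was called, and the median was 0.67 without the first array of 0 d. The part of muscle content in the rises of Csrp3 and Ankrd1 was not tested.

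A probe well above background can still be dim. The lowest normalized signals that met this mark were -7.03, -5.06 and -5.42 on the arrays of 0 d. Among the leading rises, taken from probes that met it on all 6 arrays, the largest was that of Hamp, the iron-regulating peptide hormone hepcidin. It read -4.14, -3.94 and -3.76 at 0 d and 1.01, 1.02 and 1.12 at 1 d, with no overlap, which is a rise of 5.0 ± 0.18 (SE) or 32-fold (adjusted p = 1.37e-08). Its probe lies at chr1:85978236-85978295 in rn4. Reg3b, a secreted lectin of the pancreatitis-associated protein family, read -1.86, -1.46 and -1.55 at 0 d and 2.22, 2.12 and 2.27 at 1 d, a rise of 3.83 (SE 0.13). Has1, a hyaluronan synthase, rose by 3.81 (SE 0.31) from levels between -5.56 and -3.83 to between -0.92 and -0.76. Gadd45a, a growth-arrest protein induced by DNA damage and other stress, read 2.01, 1.68 and 1.80 at 0 d and 4.76, 4.76 and 4.63 at 1 d, a rise of 2.89 (SE 0.11) at a probe on chr4:96650454-96650513 of rn4. Arg1, the arginase that feeds polyamine synthesis, rose by 2.80 (SE 0.18), from between -1.70 and -1.68 to between 0.94 and 1.35.

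Promoters of Hamp, Reg3b and Has1 are shown because they are the leading rises whose promoter held one of the motifs searched. The motifs were TGACGTCA (the cAMP response element), TGACTCA and its reverse complement TGAGTCA (AP-1), TTCNNNGAA (STAT) and CACGTG (E-box), each on both strands. The sequences run from 250 bases before to 50 after the RefSeq start in build GRCr8, with motif letters in capitals. Hamp lies at chr1:95300222-95300521 on the minus strand, Reg3b at chr4:112419526-112419825 on the plus strand and Has1 at chr1:67378395-67378694 on the minus strand.
Hamp: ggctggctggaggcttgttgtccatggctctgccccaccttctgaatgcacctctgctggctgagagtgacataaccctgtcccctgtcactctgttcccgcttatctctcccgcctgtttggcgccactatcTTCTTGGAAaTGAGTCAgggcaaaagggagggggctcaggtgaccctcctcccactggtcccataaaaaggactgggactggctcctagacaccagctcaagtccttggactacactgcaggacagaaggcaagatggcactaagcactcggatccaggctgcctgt
Reg3b: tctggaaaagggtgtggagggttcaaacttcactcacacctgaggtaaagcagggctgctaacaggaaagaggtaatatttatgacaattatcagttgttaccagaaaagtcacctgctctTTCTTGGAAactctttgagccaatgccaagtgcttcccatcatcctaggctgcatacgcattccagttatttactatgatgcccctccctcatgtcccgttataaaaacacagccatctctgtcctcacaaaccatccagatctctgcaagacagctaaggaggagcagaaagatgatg
Has1: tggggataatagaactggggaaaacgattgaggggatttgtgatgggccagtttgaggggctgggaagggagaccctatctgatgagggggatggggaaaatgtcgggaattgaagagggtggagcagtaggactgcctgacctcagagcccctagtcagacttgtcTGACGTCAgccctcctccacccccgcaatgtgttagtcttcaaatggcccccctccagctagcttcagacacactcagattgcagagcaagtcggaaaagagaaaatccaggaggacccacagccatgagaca
Counted from the start, a STAT match begins at -117 in Hamp, with an AP-1 match just after it at -107. In Reg3b the STAT match begins at -129, and in Has1 the cAMP response element begins at -83. Of the 15 genes with the largest rises, 10 had a promoter in the RefSeq table. Of these, 2 held a STAT match, 1 an AP-1 match, 1 a cAMP response element and 0 an E-box. Among all 33469 promoters of this length the shares were 8.87%, 4.63%, 1.83% and 6.42%. A match is a stretch of letters, and no binding was measured.

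Neuropeptides split into a few that rose strongly and many that did not pass the test. Of 25 tested, 6 were higher and 0 lower, beside 7.44% of all symbols higher, and the median change was -0.02. Vip, the vasoactive intestinal peptide, which uninjured sensory neurons make little of, read -2.97, -4.05 and -3.07 at 0 d and 0.89, 1.09 and 1.28 at 1 d, a rise of 4.45 (SE 0.26) or 21.8-fold with no overlap (probe at chr1:36369392-36369451 in rn4). Adcyap1, which encodes its relative PACAP, rose by 2.57 (SE 0.10), and its other probe by 2.08. Ucn, the stress peptide urocortin, rose by 2.46 (SE 0.17). Vgf, a secreted precursor of several peptides, rose by 1.28, and Gal, the precursor of galanin, by 1.27 (3.2, 3.11 and 3.13 at 0 d, 4.33, 4.37 and 4.55 at 1 d). Grp, gastrin-releasing peptide, was not well above background at 0 d and was at least 1.12-fold higher at 1 d (adjusted p = 0.00537). Peptides of uninjured nociceptors did not pass the test: Tac1, the precursor of substance P, differed by -0.11 (adjusted p = 0.492), Calca, which encodes CGRP, by 0.16 (adjusted p = 0.463), and Sst by -0.15 (adjusted p = 0.374). Npy also did not pass the test at 1 d (-0.41, adjusted p = 0.586), and its arrays spread widely at both days, from 2.25 to 4.20 and from 2.11 to 3.94. Of 23 tested peptide and opioid receptors, 17 were well above background on all 6 arrays, and the median change of these was 0.08. Among all 23, 5 were higher and 0 lower, beside 7.44% of all symbols and 23.2% of the dim probes called higher. They were Cckbr, the gastrin and cholecystokinin receptor (2.25), both bradykinin receptors Bdkrb1 (1.54) and Bdkrb2 (1.05), and the somatostatin receptors Sstr3 (1.5) and Sstr4 (1.26), while Sstr1 fell by 0.96 on the log2 scale (adjusted p = 0.00153), which is under 2-fold.

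Growth genes of regeneration rose in part. Of 38 tested, 8 were higher and 0 lower (median 0.18), beside 7.44% of all symbols higher. Flrt3, a membrane protein of leucine-rich repeats that is induced in injured neurons, read -2.81, -2.85 and -2.51 at 0 d and 0.66, 0.75 and 0.71 at 1 d on one probe (3.43, SE 0.17) and rose by 3.38 on its other probe. Ecel1, an endopeptidase of damaged neurons, rose by 2.60, Fgf2 by 2.06, Stmn4, a regulator of microtubules, by 2.03, and Socs3, the brake on gp130 signals, by 1.67. Kif22 rose by 1.54 and Mmp16 by 1.23. Gap43, the textbook growth cone protein, was already bright and rose by 0.42 (adjusted p = 0.00928), Hspb1, a small heat shock protein, by 0.84 and Cacna2d1, the channel subunit bound by gabapentin, by 0.60. Sprr1al, whose family holds a well-known injury-induced protein of axons, rose by 2.83 (SE 0.19), and Tslp, a cytokine, by 2.81 (SE 0.14); both were chosen after their values were seen.

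**Figure D2:**
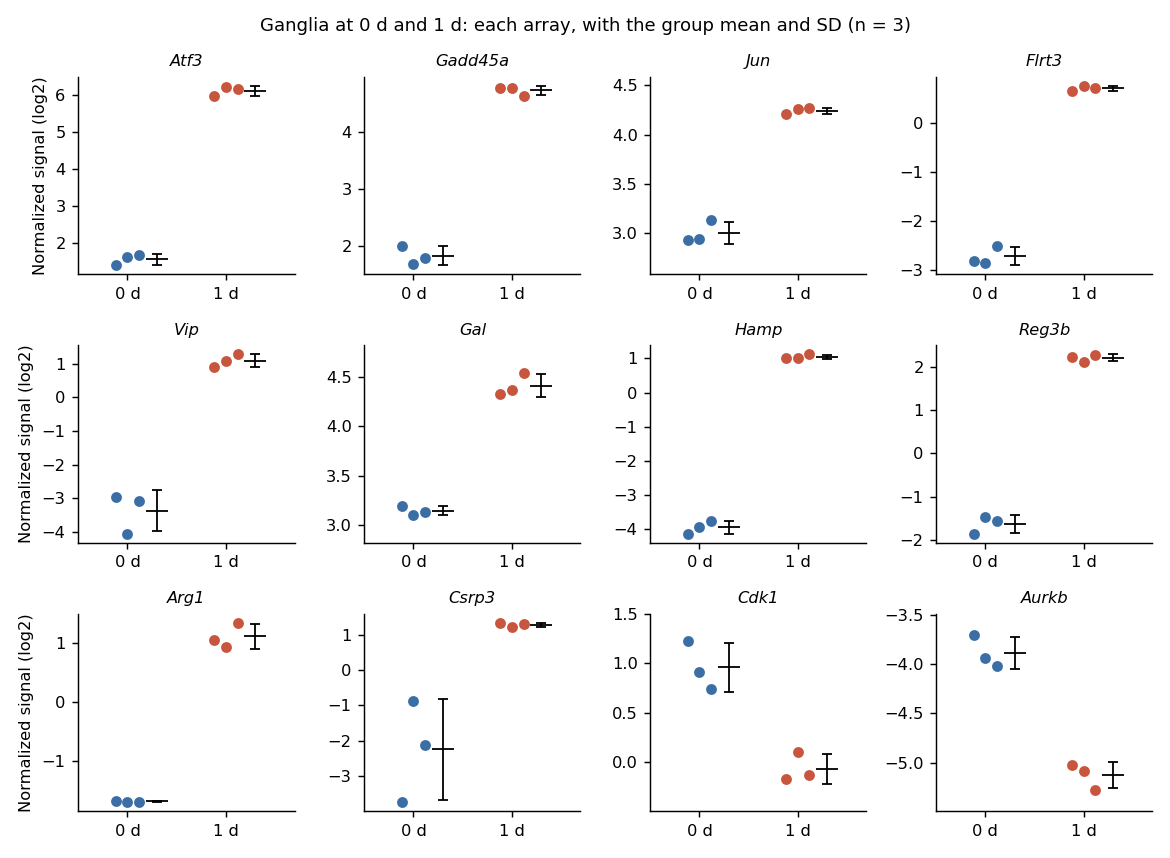
Normalized signal (log2) of 12 genes on each of the 3 arrays of 0 d (blue) and 1 d (red) in the DRG, with the group mean and SD in black. The arrays of 1 d lie above all those of 0 d for 10 genes, and below them for Cdk1 and Aurkb. The 3 arrays of 0 d spread most for Csrp3, from -3.73 to -0.88.

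Few channels and receptors of sensory neurons were called at 1 d. Of 13 sodium channels, 0 was called, and only Scn3a, a channel of immature and injured neurons, passed an adjusted p of 0.05 (0.51, adjusted p = 0.0379). Scn9a differed by 0.03, Scn10a by -0.30 (adjusted p = 0.0769) and Scn11a by -0.35 (adjusted p = 0.0514). Of 48 potassium channel genes, 31 had a lower mean. Of the 48, 9 passed an adjusted p of 0.05 downward and 6 upward, beside 4.49% and 13.9% of all symbols. Only Kcng1, a modifier subunit, fell over 2-fold. It read -1.22, -1.25 and -1.67 at 0 d and -2.17, -2.77 and -2.83 at 1 d, a fall of 1.21 on the log2 scale (SE 0.19, adjusted p = 0.000912). Kcnk18, a two-pore channel of nociceptors, fell by 0.66 on the log2 scale (adjusted p = 0.0206). Of the 2 probes called higher in this list, 1 is annotated as Kcnd3 (2.89). That probe lies at chr3:128922797-128922856 in rn4, beside the Flrt3 probe at chr3:128922831-128922890, while RefSeq places Kcnd3 on chromosome 2. It was therefore not read as Kcnd3, but it stays in the counts of the list. Of 17 calcium channel genes only Cacna1i was called (2.61), from a level near background. Of 32 sensory transducers and nociceptor receptors, 2 were called higher, a share near the 7.44% of all symbols. These were the prostaglandin receptor Ptger4 (1.13) and Runx3, a factor of proprioceptive neurons (1.26). Of the 32, 5 passed an adjusted p of 0.05 downward and 5 upward, beside 4.49% and 13.9% of all symbols. Trpv1, the capsaicin receptor, differed by -0.35 (adjusted p = 0.172) and P2rx3, the ATP receptor, by 0.07 (adjusted p = 0.793). Htr1d fell by 0.83 on the log2 scale (adjusted p = 0.000863), also under 2-fold. Of 41 transmitter receptors 3 were called higher, again near that share, among them Gabrg3 and Gabrd. The kainate receptor subunit Grik1 was called lower (-1.02), a call lost on leaving out the first or second array of 0 d or the second of 1 d.

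Of 15 sensory neuron markers 0 was called, and 3 passed an adjusted p of 0.05 downward and 0 upward, beside 4.49% and 13.9% of all symbols. Isl1, which specifies sensory neurons, read 1.06, 1.16 and 1.0 at 0 d and 0.34, 0.32 and 0.29 at 1 d, a fall of 0.75 on the log2 scale (adjusted p = 0.000583). Drgx fell by 0.47 (adjusted p = 0.0285) and the actin-binding protein Avil by 0.38 (adjusted p = 0.00756). The factors Pou4f1 (-0.45, adjusted p = 0.0854) and Tlx3 (0.00, adjusted p = 0.999) did not pass. Outside the list, Onecut1, a homeobox factor, had the largest of the leading falls that kept the call whichever array was left out. It read 1.41, 1.29 and 1.39 at 0 d and -0.04, 0.12 and -0.13 at 1 d (-1.38, SE 0.13, adjusted p = 2.88e-05). The glucocorticoid-induced factor Zbtb16 had a larger difference (-1.87) with 1 array of 1 d missing for an outlier spot, and its call was lost on leaving out the first or second array of 0 d or either remaining array of 1 d.

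Some genes of DNA damage and p53 were called higher, and some of cell division lower. Of 20 genes of the first list, 3 were called higher, beside 7.44% of all symbols: Gadd45a (2.89), the cyclin-dependent kinase inhibitor Cdkn1a (1.75, SE 0.14) and Gadd45g (1.38). In all 10 passed an adjusted p of 0.05 upward, beside 13.9% of all symbols, and 1 downward. The former held Tp53inp1 (0.93) and Mdm2, whose product marks p53 for degradation (0.63). Of 33 cell cycle genes 7 were called lower and 0 higher, beside 0.214% of all symbols, and 26 had a lower mean (median -0.46, and -0.58 after quantile normalization). In all 17 passed an adjusted p of 0.05 downward and 0 upward. Aurkb, the kinase of chromosome passengers, read -3.70, -3.94 and -4.02 at 0 d and -5.03, -5.08 and -5.27 at 1 d (-1.24, SE 0.18). Cdk1, the kinase that drives mitosis, read 1.23, 0.91 and 0.74 at 0 d and -0.18, 0.10 and -0.13 at 1 d (-1.03, SE 0.14, adjusted p = 0.000329), at a probe on chr20:20043755-20043814 of rn4. Neither gene's groups overlapped. The mitotic kinase Pbk (-1.27), Kif20a (-1.1), Top2a (-1.06) and Bub1b (-1.0) fell too, as did Cenpf (-1.34), which was near background. Without the first array of 0 d, 4 of the 33 were called lower, and the calls of Cdk1, Top2a and Bub1b were lost. Among genes outside the list, the spindle checkpoint kinase Ttk (-1.19), Racgap1, needed for cytokinesis (-1.25), and Cdc7, which fires replication origins (-1.21), fell. Other textbook members of the list did not pass the test, with Pcna at 0.02 (adjusted p = 0.922), Mcm2 at -0.30 (adjusted p = 0.134) and Ccnd1 at 0.19 (adjusted p = 0.212).

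Cell division genes moved the other way in the cut nerve. In the SN at 1 d, 31 of the 33 genes had a higher mean, with a median of 1.09. The difference between the tissues, tested as the interaction in limma on all 30 arrays, passed an adjusted p of 0.05 for 29 of 33 genes. Of all 33806 probes tested, 35.6% passed. With the slide as a further term, the interaction rests on 1 DRG array of each day. Only the first DRG array of 0 d and of 1 d shared a slide with SN arrays of its day. For Cdk1 the change was -1.03 in the DRG and 1.08 in the SN, a difference of -2.11 (adjusted p = 7.98e-08). For Pbk it was -1.27 and 1.13, a difference of -2.40 (adjusted p = 4.18e-09).

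**Figure D3:**
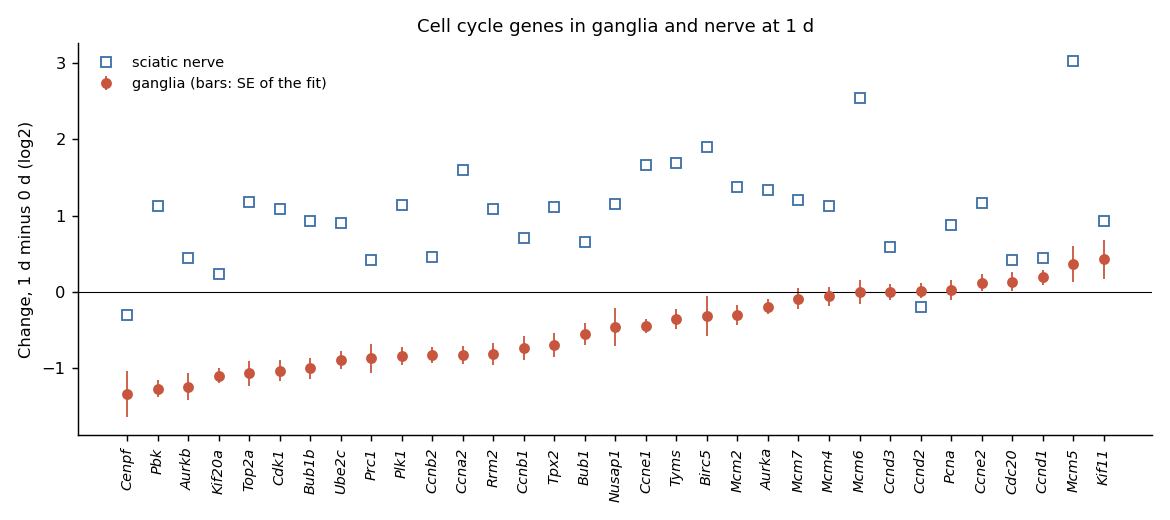
Change at 1 d against 0 d (log2) of 33 cell cycle genes in the DRG (red points, bars are the SE of the fit) and in the SN (open blue squares), ordered by the change in the DRG. In the DRG 26 of 33 lie below 0, and in the SN 31 of 33 lie above it.

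A few cytokines that were below background at 0 d were called higher. Il6, the gp130 cytokine, cleared the background on none of the arrays of 0 d and read -3.00, -3.06 and -2.98 at 1 d, at least 7.07-fold higher (adjusted p = 3.78e-06). Such bounds are taken against the dimmest signal that counted as well above background on the arrays of 0 d. Xcl1, a chemokine of lymphocytes, was at least 5.33-fold higher, Il1a at least 2.16-fold and Ccr7, a receptor of migrating lymphocytes and dendritic cells, at least 1.74-fold. Among such probes with a gene symbol the bound was highest for RGD1311993, an uncharacterised locus (at least 30.2-fold). After Il6 and Xcl1 came the olfactory receptors Or7g23b (at least 5.15-fold, with its call lost on leaving out any array but the third of 0 d) and Or5ap2 (at least 5.11-fold). In all, 1366 probes stood well above background on all 3 arrays of 1 d and on none of 0 d, and 0 went the other way. Every array of 1 d had more probes well above background than any array of 0 d. Of the 1366, 868 were called. They were picked by their signal on these same arrays, so their calls partly repeat that choice and are not further evidence. Of 39 chemokines and receptors 7 were higher and 0 lower (median 0.30), beside 7.44% of all symbols and 23.2% of the dim probes. Only Ccl22 (1.24) of them was well above background on all 6 arrays. Of 18 genes of gp130 signalling 2 were higher (Il6 and Socs3), beside the same 7.44% of all symbols, with Jak2 at 0.63 (adjusted p = 0.00125). Of 22 genes of interleukin-1 and TNF 2 were higher (Il1a and Il10), again beside 7.44% of all symbols. Csf1, the growth factor of macrophages and microglia, rose by 0.94 (adjusted p = 0.00011), just under 2-fold. Of 29 genes of complement and the acute phase, Reg3b and Saa4 (1.28) were higher, a share near the 7.44% of all symbols.

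Several genes that the study names for the cut nerve had smaller changes in the DRG than in the SN. They were taken from its account of the nerve. A larger change in the SN therefore partly follows from that choice and is not further evidence. Ngfr, the neurotrophin receptor of repair Schwann cells and sensory neurons, read 5.01, 4.98 and 4.88 at 0 d and 4.77, 4.70 and 4.78 at 1 d in the DRG (-0.21, adjusted p = 0.218), against 1.91 in the SN. Shh differed by 0.29 in the DRG against 3.24 in the SN. The monocyte chemokine Ccl2 rose by 0.58 (adjusted p = 0.0114) against 3.74, Ccl7 differed by 0.10 against 3.11 and the neutrophil chemokine Cxcl1 by 0.95 (adjusted p = 0.0762) against 3.06. Il1b differed by 0.37 against 2.52, its blocker Il1rn by 0.34 against 4.33, the oxidized-LDL receptor Olr1 by 0.37 against 6.44 and Kng1 by -0.21 against 4.28. The interaction passed for all 9 of these genes, but with the slide as a further term not for Il1b (adjusted p = 0.354) or Cxcl1 (adjusted p = 0.0865). Olr1 and Kng1 were near background in the DRG. Il6 and Il1a, which the study also names, were called higher in the DRG, and their SN changes are not reported here. For Gdnf, the glial neurotrophic factor, the interaction did not pass (0.43 and 0.83, adjusted p = 0.303). Atf3 went the other way, 4.53 in the DRG and -0.33 in the SN (difference 4.87, adjusted p = 3e-15), as did Vip (4.45 and -1.90), Gal (1.27 and -1.68), Flrt3 (3.43 and -0.05) and Gadd45a (2.89 and -0.06), all with the interaction past the test. Arg1 rose in both tissues, by 2.80 and 3.03, with no difference past the test (adjusted p = 0.599), and so did Sox11 (3.08 and 3.53, adjusted p = 0.493) and Csrp3 (3.53 and 3.55, adjusted p = 0.994).

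Markers of other cells were counted for all lists. Their counts stand beside 7.44% of all symbols called higher and 0.214% lower. Of the probes that missed the background mark on 1 or more of the 6 arrays, 23.2% were called higher. Of 19 macrophage markers 0 was called (median 0.10, summed signal 6.23 to 6.75 at 0 d and 6.29 to 6.55 at 1 d). Of 12 neutrophil markers 1 was called, the dim Csf3r, and S100a8, a main neutrophil product, differed by 0.08 against 5.26 in the SN. Of 16 lymphocyte markers 3 were higher, but only 6 of the 16 were well above background on all 6 arrays, and the median of these was -0.01. Gzmb, the protease of cytotoxic cells, rose by 4.95 (SE 0.43) and its 2 other probes by 1.87 and 2.47, while the calls of Cd8b and Cd5 were lost on leaving out 1 array. Of 17 satellite glia markers only Gfap, a filament of reactive glia, was called (1.71, SE 0.35, adjusted p = 0.00574), reading -4.39, -4.77 and -4.13 at 0 d and -2.68, -3.39 and -2.09 at 1 d. Of 19 Schwann cell and myelin markers 0 was called (median -0.14). Of 8 markers of spinal cord 2 were called higher, Mobp (1.86, with its other probes between -0.08 and 1.30) and Chat (1.57, near background). All 8 had a higher mean at 1 d (median 0.87), and 4 passed an adjusted p of 0.05 upward, beside 13.9% of all symbols. The median was 0.89 for the 5 well above background on all 6 arrays. The summed signal of the 8 was 1.89 to 1.97 at 0 d and 2.25 to 2.51 at 1 d. Of 15 markers of repair Schwann cells only Jun was called, and of 6 of adipocytes only Adrb3, which was dim. Mast cell, erythroid, endothelial, fibroblast and B cell markers had 0 calls.

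Other stress and metabolic lists moved little. Their counts stand beside 7.44% of all symbols called higher and 0.214% lower. Of 32 genes of the unfolded protein and integrated stress response 2 were higher, Atf3 and Trib3 (1.88), a pseudokinase that binds Akt. Of 30 genes of heat shock, metal and oxidative stress only the dim Gclm was called (2.06), with Txnrd1 (0.58) and Srxn1 (0.56) below 2-fold. Of 39 extracellular matrix genes and proteases 3 were higher, led by Mmp3, stromelysin-1 (3.35), which was near background at 0 d. Of 39 axon guidance genes only Sema6a, a transmembrane semaphorin, was called (2.28, SE 0.15), from between -1.06 and -0.86 to between 1.21 and 1.41. The 26 genes of cholesterol synthesis and the 45 subunits of oxidative phosphorylation had 0 calls, with medians of 0.12 and 0.01. Apoptosis, lipid handling and synaptic vesicle genes had 0 calls as well. Only Gfap of the cytoskeleton list and only Arg1 of the arginine, polyamine and tetrahydrobiopterin enzymes were called. The neurotrophic list had 3 of 34 higher, among them the growth factors Areg (2.55) and Fgf2. The clock list had 2 of 16, among them Nfil3, and the glucocorticoid list had Cdkn1a and Hif3a higher and Zbtb16 lower.

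Interferon-induced genes mostly had lower means, and the calls depended on the control arrays. Of 33 tested, 30 were lower at 1 d (median -0.57), and 2 were called lower, beside 0.214% of all symbols. These were Oas1a (-1.24, adjusted p = 0.0287) and Dhx58 (-1.08, adjusted p = 0.0365), both sensors of viral RNA. The summed signal of the list was 6.90, 7.06 and 7.91 at 0 d and 6.83, 6.43 and 6.93 at 1 d, so that the third array of 0 d stood highest. Both calls were lost on leaving out that array, while 5 genes of the list were called lower without the first array of 0 d. The median was 1.01 on 7 d and -0.46 in the SN at 1 d.

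**Figure D4:**
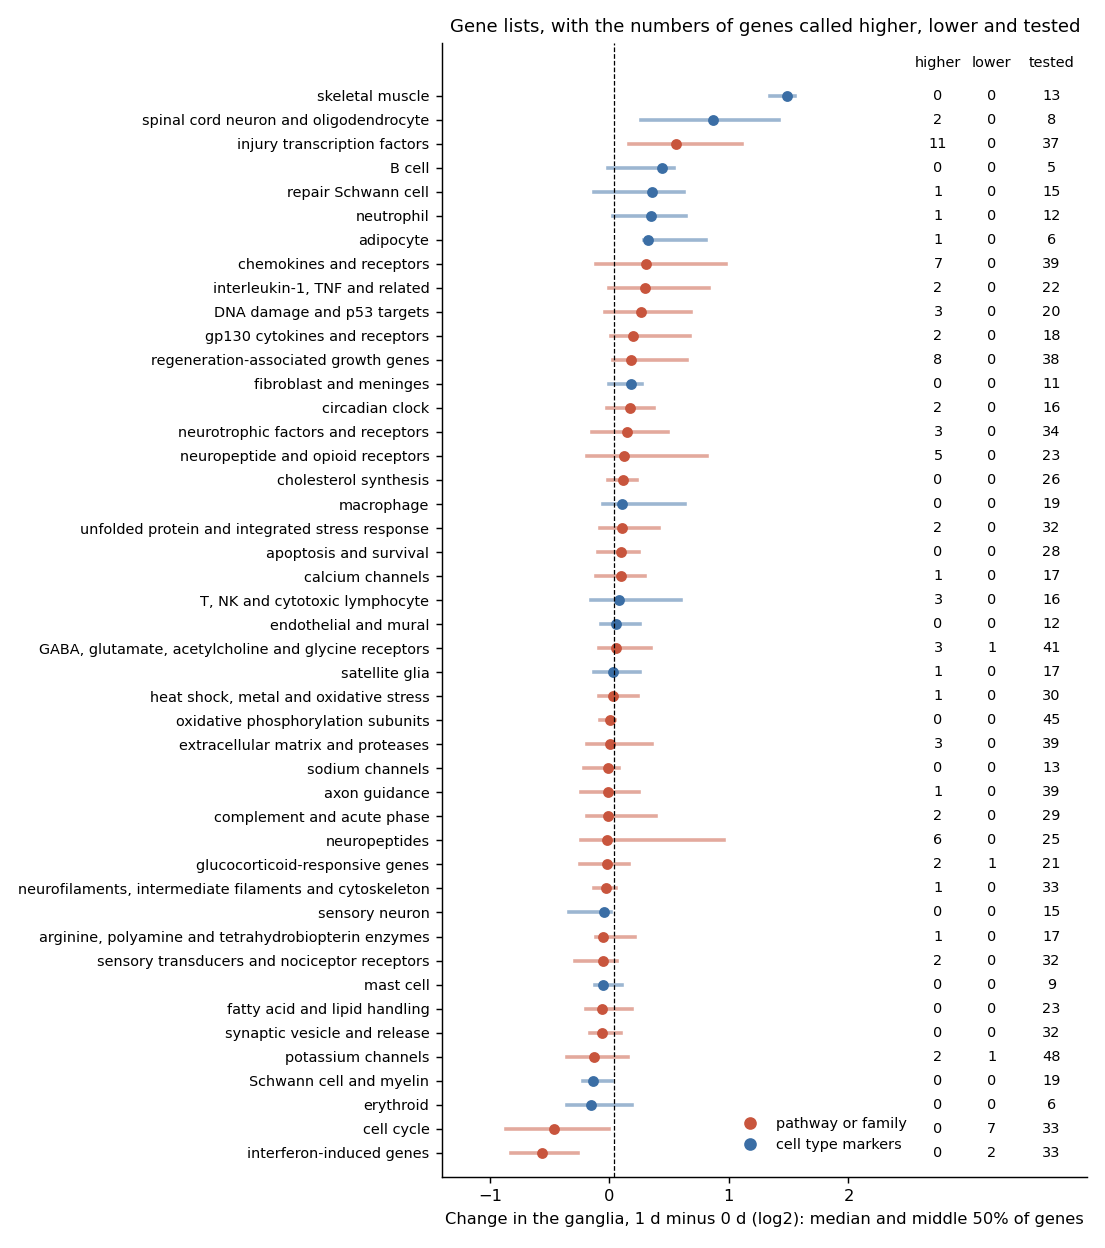
Median (point) and middle 50% (line) of the change at 1 d in the DRG (log2) for each of 45 gene lists, 30 of pathways or families in red and 15 of cell type markers in blue, with the numbers of genes called higher, called lower and tested. The dashed line is the median of 1 probe per gene symbol, 0.04. Skeletal muscle stands highest with 0 calls, and interferon-induced and cell cycle genes lie lowest.

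Over all lists, 997 of 1087 listed genes were tested, 71 were higher and 12 lower, beside 7.44% and 0.214% of all symbols, so that the share higher was near the background. Of the rest, 42 had no probe that passed the filter, and 47 were not found on the array by name. Olfactory receptors, a family of many dim probes, had 259 of 572 tested probes called higher (45.3%) and 0 lower, with a median of 1.36. Only 117 of them were well above background on all 6 arrays. The number of such probes well above background was 271, 130 and 167 on the arrays of 0 d and 641, 558 and 437 on those of 1 d. With normexp background correction the median was 0.71 and 22 were called. Their median change in the SN was 2.20, so that the rise was not particular to the DRG. Among single receptors of the leading rises, Or7a37 rose by 2.65 and Or10c1 by 2.58, beside the uncharacterised loci C9h6orf141 (2.62) and LOC684725 (2.62).

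Among the remaining falls of the 15 largest, Fam111a, a protease that acts at replication forks (-1.32), Jade2, a scaffold of histone acetyltransferases (-1.27), Depp1 (-1.21) and Cpn1, the catalytic subunit of carboxypeptidase N (-1.21), were called lower. The call of Depp1 was lost on leaving out the first or second array of 0 d or the first of 1 d, that of Cpn1 without the second of 0 d, that of Cdc7 without the second of 1 d and that of Ttk without the first of 0 d. The coactivator Ppargc1b fell by 1.16, while its other probe had a difference of 0.72.

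The later days share the arrays of 0 d with this comparison, so their values are given side by side and not as further evidence. Some genes had their highest mean at 1 d. Gadd45a stood 2.89 above 0 d at 1 d and 2.24, 2.48 and 2.18 at 4, 7 and 14 d, and Flrt3 3.43 at 1 d and 2.28, 2.87 and 2.22 later. Atf3 differed by 4.53 at 1 d and 4.36, 4.13 and 4.23 later. Others had only begun to rise. Vip differed by 4.45 at 1 d and 8.03, 8.13 and 8.18 later, Ucn by 2.46 and then 7.00, 7.05 and 6.51, Gal by 1.27 and then 4.18, 4.32 and 4.14, and Sprr1al by 2.83 and then 5.47, 6.25 and 5.43. Npy, not past the test at 1 d, differed by 3.05, 3.79 and 3.90 at the later days. Hamp differed by 5.0 at 1 d, then by 7.01 and 6.55, and by 5.32 at 14 d. Bdnf, a neurotrophin, was higher by 0.88 at 1 d (adjusted p = 0.000148) and differed by -0.07, -0.08 and -0.48 later.

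**Figure D5:**
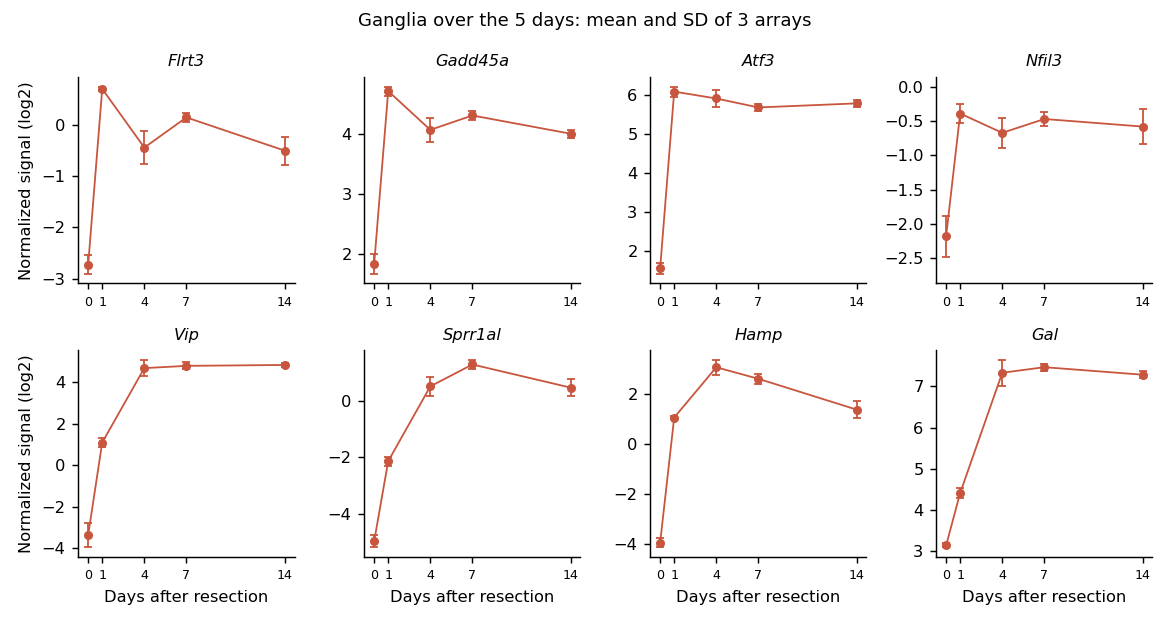
Normalized signal (log2, mean and SD of 3 arrays) of 8 genes in the DRG at 0, 1, 4, 7 and 14 d after resection. Flrt3 and Gadd45a have their highest mean at 1 d, Atf3 stays near its level of 1 d, and Vip, Sprr1al, Hamp and Gal are higher at 4 d than at 1 d.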

How the data were processed

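Total RNA was labelled with Cy3 and hybridized to single-colour Agilent rat arrays. Per the file headers, the deposited intensity values were read by the authors with Feature Extraction 10.5.1.1 (build rn4), background-subtracted and not normalized between arrays. The log2 values of the authors' deposited matrix have the same median (7.75) on all 30 arrays and were used as an alternative.

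Here the log2 processed intensity, without outlier-flagged spots, was averaged per probe (41012 probes), and each array's 75th percentile was subtracted. A probe was well above background where at least 50% of its spots were. Limma 3.58.1 (R 4.3.3, statmod 1.5.0, data.table in version 1.17.8) was fitted on the 15 DRG arrays, or on all 30 for the interaction, with Benjamini-Hochberg adjustment over 34977 and 33806 probes. Tables and figures used Python 3.11.15, pandas 2.3.3, numpy 2.4.6 and matplotlib 3.10.9. The fit was tested on simulated data. No spot was saturated, and 3 arrays a group limit the precision.

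Symbols were updated through 13088 of 17504 RefSeq accessions found in the table of GRCr8. Named genes were the 15 largest rises and falls well above background on all 6 arrays without overlap, with a symbol and accession; members of the lists, at the probe with the highest mean signal; the 5 highest bounds; and genes the study names in its text, of which Pirb was not found by name and is not reported. Some other listed genes are not reported here. An at-least fold sets the mean of 1 d against that of 0 d, where each array takes the higher of the lowest signal well above background and the probe's own. The members and lists were chosen with earlier results of these data known. Alternatives covered background correction, normalization, the filter, the fit, the test, the fold, the probe of a gene and each array left out.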

Additional observations from a re-analysis of the deposited data

Results flagged for a closer look

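The change at 1 d differed between the DRG and the SN, by the interaction in limma, for 12039 of 33806 probes. With the slide as a further term, 5223 passed. The interaction in that fit rests on the first DRG array of each day alone. For the genes named in the text, the values below are the DRG change minus the SN change on the log2 scale.

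The difference was positive for Hamp (3.87), Atf3 (4.87), Vip (6.34), Reg3b (1.57), Has1 (1.21), Flrt3 (3.48), Gadd45a (2.95), Adcyap1 (1.97) and Xcl1 (2.27), as well as Or7a37 (0.805) and C9h6orf141 (0.705). It was negative for the cell division genes Pbk (-2.4), Racgap1 (-1.79), Aurkb (-1.68), Ttk (-2.58), Top2a (-2.33 and -2.24), Cdk1 (-2.11), Bub1b (-1.94), Kif20a (-1.34) and Cenpf (-1.03), where Top2a has a value for each of its 2 probes. It was also negative for Fam111a (-1.82), Kcng1 (-3.45) and Ppargc1b (-0.975). Genes that the study names for the nerve were chosen by that response, so a negative difference partly follows from the choice. Among them the difference was negative for Ngfr (-2.12), Shh (-2.95), Olr1 (-6.06), Kng1 (-4.49), Il1b (-2.15), Il1rn (-4), Cxcl1 (-2.11), Ccl2 (-3.16) and Ccl7 (-3). Of these, the interactions of Or7a37, C9h6orf141, Kcng1, Ppargc1b, Cenpf, Il1b and Cxcl1 did not pass with the slide as a further term.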

How the results depend on the processing

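The numbers of called probes depended on the processing more than on any 1 array. Against 2600 higher and 59 lower, quantile normalization gave 1545 and 241, the authors' values 1569 and 245, normexp background correction 309 and 11, normexp with quantile normalization 368 and 31, and a fold over 1.5 gave 4026 and 272. The methods' t-test gave 2448 and 42 at its unadjusted p, and 940 and 20 after Benjamini-Hochberg. Only the probes well above background on all 6 arrays gave 680 higher. No filter on dim probes gave 253 lower, and a fit of the 6 arrays alone 36 lower. Of the listed genes, 71 higher and 12 lower, normexp gave 40 and 2, and a fold over 1.5 gave 129 and 29. The t-test gave 70 and 9 of them at its unadjusted p, and 46 and 4 after Benjamini-Hochberg. Normexp with quantile normalization gave 39 higher and the strict filter 43 higher, while quantile normalization gave 21 lower and the authors' values 21 lower. The cause was not tested. Leaving out 1 array gave 1937 to 2953 higher (listed genes 68 to 93) and 42 to 97 lower (listed genes 7 to 13), with 97 without the first array of 0 d and 7 without the second of 1 d. With only the first array of 0 d as control, chosen after seeing the data, 195 probes and 20 listed genes were lower. The interaction count of 12039 was 5223 with the slide as a fixed term, also chosen after seeing the data, and 10472 to 12428 with 1 array left out. Replicate numbers do not pair the samples (correlations of -0.24, 0.01 and -0.10); with the replicate number as a block, 2466 probes were higher and 60 lower. Of 101 called genes that the text or its lists name, 40 kept the call under every alternative run. None of 2588 comparisons reversed the direction. Normexp background correction lost 51, and the methods' t-test lost 7 at its unadjusted p and 43 after Benjamini-Hochberg. Signal over background limits every statement on dim probes.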
